A study of Mus musculus with 24 samples.

Results

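The genes that remodel the extracellular matrix were followed across mouse liver organoids: the cross-linkers Lox and Loxl4, the matrix metalloproteinases Mmp2, Mmp9, Mmp13, Mmp14 and Mmp15, and the inhibitors Timp1, Timp2 and Timp3. These 10 genes were taken by symbol from the tables of 31053, 25876 and 20729 genes, and all 10 were listed in each table. Loxl4 was included because it rose in the cholangiocyte organoids, so its values there are a description without a test. The other 9 were taken by family name.

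Lysyl oxidases oxidise lysines of collagen and elastin, which lets the fibres cross-link. Matrix metalloproteinases (MMPs) are zinc enzymes that cut collagens, laminins and other matrix proteins at or near the cell surface, and many are made as inactive precursors. Tissue inhibitors of metalloproteinases (TIMPs) bind and block them. In liver, lysyl oxidases, MMPs and TIMPs are known for their part in the build-up and resolution of fibrosis, where much of their RNA comes from stellate cells and macrophages, while epithelial cells also make several of them.

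All cells came from wild-type adult BALB/c mice, and the organoids grew in Matrigel, a laminin-rich basement membrane extract. Hepatocyte organoids (Hep-Orgs) were grown from liver cells separated by density gradient and depleted of EpCAM+ cells, in Hep-Med with the Notch pathway inhibitor DAPT and dexamethasone, and were sampled at passages P1, P5 and P10 beside primary hepatocytes (Pri-Hep). Cholangiocyte organoids (Cho-Orgs) were grown from EpCAM+ cells in their own medium and sampled at P0, P5 and P10. Each of these 7 groups has 3 bulk poly(A) libraries. P0 Hep-Orgs grown in Hep-Med without DAPT and dexamethasone were picked by shape as grape-like, intermediate or round-like, and 1 Smart-Seq library was made of each shape. No genotype, transgene or drug treatment differed between the passages of a culture, and both media held A83-01, an inhibitor of TGF-beta receptors. Whether replicates were 3 mice or 3 cultures is described in both ways by the study, so p-values here measure the spread between such libraries.

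Levels are given as FPKM, the number of fragments per kilobase of a gene scaled to the size of the library, and each table was normalized on its own. Depth was 14068906 to 27160365 fragments in the hepatocyte table, and was estimated at 37560000 to 40040000 for the Cho-Orgs libraries and 40060000 to 40380000 for the Smart-Seq libraries. A level of 3 fragments or fewer was treated as the floor. Differences are on the log2(FPKM + 1) scale, which understates the change of genes near or below 1 FPKM. Genes with at least 1 FPKM in at least 3 libraries were tested with limma, and p-values were adjusted over all tested genes by the Benjamini-Hochberg method.

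The labelled cell types were compared with lists of 10 markers each. In the libraries labelled Pri-Hep, hepatocyte markers summed to 615 to 648 FPKM and cholangiocyte markers to 3939 to 4033 FPKM, and the 9 Hep-Orgs libraries lay at 627 to 678 and 3889 to 4104 FPKM. Most of the cholangiocyte sum was 1 gene, Spp1, at 3090 to 3203 FPKM in the libraries labelled Pri-Hep, beside Krt19 at 229 to 241 FPKM and Krt7 at 45.7 to 50.3 FPKM. Ttr, the most abundant hepatocyte marker of this table, was at 409 to 429 FPKM and Alb at 106 to 121 FPKM. In both sums the libraries labelled Pri-Hep lay with or next to those of the Hep-Orgs, with more FPKM from the cholangiocyte than from the hepatocyte list. Over pairs of libraries, the squared difference was 1.95 to 3.20 times counting noise within a group and 1.83 to 4.65 times between groups, so no pair was counted as 1 library. The lowest value between groups lay below the lowest within a group. This check cannot tell whether the libraries came from separate mice or cultures, and the p-values below take them as separate. In the Cho-Orgs, hepatocyte markers summed to 7728 to 8560 FPKM at P0, 210 to 257 FPKM at P5 and 77.9 to 83.7 FPKM at P10, and cholangiocyte markers to 5202 to 6622, 3663 to 3788 and 3438 to 3466 FPKM. Alb, the most abundant hepatocyte marker here, had 5202, 4526 and 5254 FPKM at P0 and at most 0.647 FPKM at P10, while Krt19 had 996 to 1141 FPKM and 1387 to 1420.2 FPKM. Stellate and mesenchymal markers fell from 60.8 to 75.8 FPKM at P0 to 7.55 to 8.37 FPKM at P5 and 0.174 to 0.239 FPKM at P10, and most of the P0 sum was Reln, with 60.2, 72.8 and 74.5 FPKM. In bulk libraries, fewer cells of a type and less RNA per cell cannot be told apart.

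**Figure D1:**
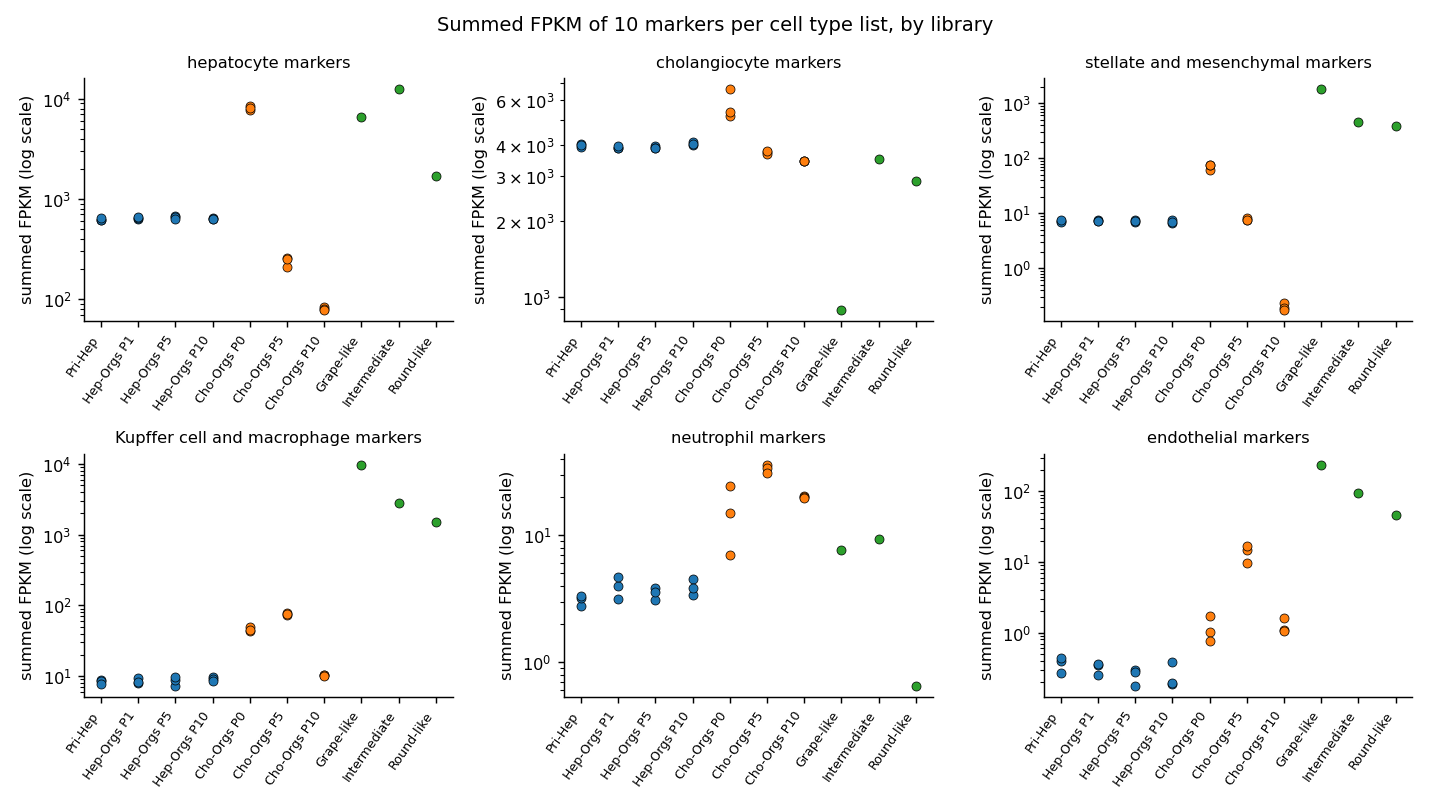
Summed FPKM (log axes) of 10 markers for each of 6 cell type lists, 1 point per library, coloured by table (blue hepatocyte, orange cholangiocyte, green Smart-Seq). Hepatocyte and mesenchymal sums drop over the passages of the Cho-Orgs, while the 4 groups of the hepatocyte table lie level, and macrophage sums are highest in the Smart-Seq libraries.

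On GRCm38, Loxl4 (ENSMUSG00000025185) lies on the minus strand of chromosome 19 from 42593982 to 42612813, Timp3 (ENSMUSG00000020044) on the plus strand of chromosome 10 from 86300372 to 86349506 and Timp1 (ENSMUSG00000001131) on the plus strand of chromosome X from 20870166 to 20874735. Timp2 (ENSMUSG00000017466) lies on the minus strand of chromosome 11 from 118301069 to 118355740. Mmp14 (ENSMUSG00000000957) lies on chromosome 14 from 54431612 to 54445364, and Mmp2 (ENSMUSG00000031740) and Mmp15 (ENSMUSG00000031790) on chromosome 8 from 92827291 to 92853420 and from 95352268 to 95375080, all on the plus strand. Mmp9 (ENSMUSG00000017737) is on chromosome 2 from 164940780 to 164955850 and Mmp13 (ENSMUSG00000050578) on chromosome 9 from 7272514 to 7283331, also on the plus strand. Timp3 sits inside Syn3 on the opposite strand and shares 1733 exon bases with it. The bulk libraries were strand-specific according to the study's methods, but whether counting used the strand is not given in the sources used here. Syn3 itself stood at 0.0163 to 0.103 FPKM in the Cho-Orgs and 0.264 to 0.417 FPKM in the hepatocyte table, far below Timp3. Timp1 lies within Syn1 on the opposite strand without a shared exon base.

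The promoters of Loxl4 and Timp3, the members above the filter on low values with the largest increases on the log2(FPKM + 1) scale from P0 to P10 of the Cho-Orgs, and of Timp1, with the largest decrease, are shown so that the 3 can be compared. They are the 200 bases from 250 to 51 bases before the RefSeq start (GRCm38.p6), for which 7 of the 10 members had an entry. Capitals mark matches on either strand to the letters GGGCGG (a GC box), TGANTCA (AP-1), GGAATG (TEAD) and AGGAAG (ETS, PEA3).
Loxl4, chr19:42612857-42613056, minus strand: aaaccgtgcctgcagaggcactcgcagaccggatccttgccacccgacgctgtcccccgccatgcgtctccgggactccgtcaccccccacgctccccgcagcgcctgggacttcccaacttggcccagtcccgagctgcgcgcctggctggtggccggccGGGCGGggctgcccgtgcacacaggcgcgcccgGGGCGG
Timp3, chr10:86300162-86300361, plus strand: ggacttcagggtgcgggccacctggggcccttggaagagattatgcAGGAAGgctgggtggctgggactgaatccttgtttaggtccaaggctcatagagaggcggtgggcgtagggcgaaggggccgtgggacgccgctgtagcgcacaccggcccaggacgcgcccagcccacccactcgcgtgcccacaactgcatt
Timp1, chrX:20869916-20870115, plus strand: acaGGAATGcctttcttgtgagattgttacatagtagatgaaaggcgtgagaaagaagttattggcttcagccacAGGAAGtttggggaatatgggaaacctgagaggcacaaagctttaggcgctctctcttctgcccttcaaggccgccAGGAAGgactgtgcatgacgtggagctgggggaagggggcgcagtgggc

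The Loxl4 window was 75% G or C with 23 CpG and 2 GC boxes, and the Timp3 window was 65.5% G or C with 13 CpG and 1 ETS match. The Timp1 window was 52.5% G or C with 5 CpG, 2 ETS matches and 1 TEAD match. Over 32851 windows of the same length, the medians were 51.5% and 4 CpG, and 24.6% held GGGCGG, 5.57% TGANTCA, 10.7% GGAATG and 23.9% AGGAAG. The windows of Loxl4, Timp3 and Timp1 were all above the medians in G or C and in CpG, with Timp1 the closest to them. The Loxl4 and Timp3 windows held no motif of the 4 in common. Timp2 and Mmp13 also rose over the passages, and their windows are not shown. These matches are a description of letters, not of bound sites.

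Over the passages of the Cho-Orgs, the matrix remodelling genes changed chiefly in 3 members: Loxl4 and Timp3 were higher at each later passage, and Timp1 fell. Timp2 rose and Mmp15 was highest at P5, each by a smaller step, Mmp14 did not pass the test in any comparison, and Lox, Mmp2, Mmp9 and Mmp13 stayed below 1 FPKM. Of the 10 members, 5 were tested beside Loxl4 and 4 were below the filter on low values. From P0 to P5, 3 of the 5 rose and 1 fell, where 34.0% of all 11593 tested genes were called higher and 22.6% lower. From P5 to P10, 1 of the 5 rose and 2 fell (31.0% and 30.5% of all genes), and from P0 to P10, 2 rose and 2 fell (41.0% and 31.3%). In all, 56.6%, 61.5% and 72.3% of the tested genes were called in these comparisons. The libraries of a passage did not overlap with those of the other in 4 of the 5 members each time. From P0 to P5 these were 3 higher and 1 lower (36.7% and 24.8% of all genes), from P5 to P10 2 higher and 2 lower (37.5% and 36.8%), and from P0 to P10 2 higher and 2 lower (42.6% and 32.6%). Most genes of these libraries changed, so the counts of members do not set them apart, and the sizes and directions of single members are what the values below give. Among the genes called between P0 and P5, 60.0% were higher at P5 here and 47.1% with median-ratio scaling, under which the calls of the 5 members stayed. The 3 comparisons share libraries and are not independent of each other.

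**Figure D2:**
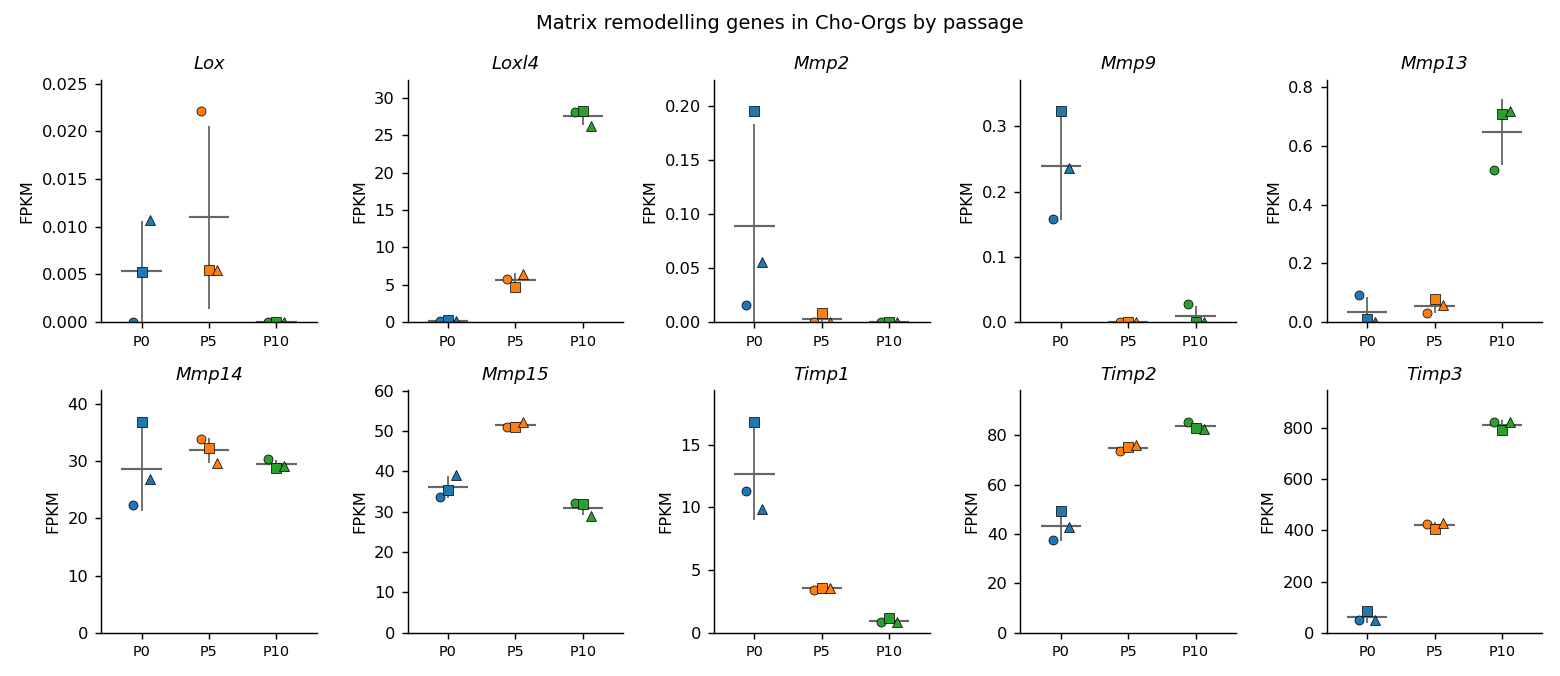
FPKM of the 10 genes by Cho-Orgs passage (P0, P5, P10), with circles, squares and triangles for replicates 1, 2 and 3, horizontal lines for means and vertical lines for SD (n = 3, cut at 0). Loxl4 and Timp3 climb at each step, Timp1 falls at each step, and the square at P0 is highest for 7 genes.

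Loxl4, a lysyl oxidase with scavenger receptor domains, had 0.165, 0.330 and 0.123 FPKM in replicates 1, 2 and 3 at P0, 5.74, 4.74 and 6.47 FPKM at P5 and 28.2, 28.2 and 26.3 FPKM at P10. No library of one passage reached the range of another. About 20.4 to 55.7 fragments stood behind the P0 values and 4157 to 4535 behind those at P10, so the P0 level was above the floor. The mean was 0.206 ± 0.109 FPKM (SD, n = 3) at P0 and 27.5 ± 1.11 FPKM at P10, a ratio of 134, of which the first 5 passages gave 27.4 and the next 4.88. Among the genes of a library, Loxl4 moved from rank 12668 to 13910 at P0 to rank 2343 to 2509 at P10. The log2 differences were 2.46, 2.11 and 4.57 for P5 against P0, P10 against P5 and P10 against P0, and with a pseudocount of 0.1 the first and last were 4.28 and 6.55. Lox, the founding member of the family, did not share this course. It had 0, 0.00522 and 0.0107 FPKM at P0, 0.0221, 0.00547 and 0.00544 FPKM at P5 and 0 in each library at P10, which is at most 4 fragments in any library.

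The secreted gelatinases and the secreted collagenase stayed below 1 FPKM in every Cho-Orgs library, with several values at the floor. Mmp9, a gelatinase common in leukocytes, had 0.159, 0.323 and 0.236 FPKM at P0 from 22.4 to 45.8 fragments and 0 in all 3 libraries at P5, at least 10.7-fold lower against a floor of 3 fragments per library. At P10 it was at 0.0276 FPKM in replicate 1 and 0 in the others. Mmp2, a gelatinase typical of mesenchymal cells, had 0.0157, 0.195 and 0.0560 FPKM at P0, and from P5 on its highest value was 0.00819 FPKM. Each library from P5 on was below each P0 library in Mmp9. The Mmp2 values were ordered in the same way. However, P0 replicate 1 rested on about 2.1 fragments of Mmp2, which is at the floor and cannot be told apart from the later values. Shares of all genes without overlap were not counted below the filter. The collagenase Mmp13 went the other way: it had 0.0938, 0.00936 and 0 FPKM at P0, 0.0297, 0.0784 and 0.0585 FPKM at P5 and 0.520, 0.708 and 0.718 FPKM at P10. Its P10 values rest on 53.1, 71.2 and 72.1 fragments, against 11 fragments over the P0 libraries together, and each P10 library was above each earlier one. Mmp13 is below the filter of the test, and when all genes above 0 FPKM were tested its log2 fold change from P5 to P10 was 0.64 (standard error 0.05, limma adjusted p = 0.0001). In that fit Mmp9 fell by 0.31 from P0 to P5 (standard error 0.04, limma adjusted p = 0.00103), and Mmp2 had an adjusted p of 0.135. Apart from P10 replicate 1, Mmp9 was above 0 only at P0, so its lower level at P5 was nearly a condition of its being tested. Of the 22670 genes in that fit, 7584 were called from P0 to P5 and 7838 from P5 to P10.

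The membrane-anchored MMPs were the main MMP transcripts among the members. Mmp14, the membrane enzyme that activates the Mmp2 precursor, had 22.3, 36.9 and 26.9 FPKM at P0, 33.9, 32.2 and 29.6 FPKM at P5 and 30.4, 28.8 and 29.2 FPKM at P10. Its P0 libraries spanned those of both later passages, and the log2 fold changes of 0.18, -0.11 and 0.07 (standard error 0.14) had limma adjusted p-values of 0.317, 0.529 and 0.693. The outcome rests on the P0 libraries: without P0 replicate 2, an omission chosen after seeing the data, the rise from P0 was 0.37 at P5 (limma adjusted p = 0.00419) and 0.26 at P10 (0.0185), and without replicate 1 of each passage the differences were -0.027 and -0.12. Mmp15, a related membrane enzyme, had 33.6, 35.4 and 39.1 FPKM at P0, 50.9, 51 and 52.2 FPKM at P5 and 32.2, 31.8 and 29.0 FPKM at P10. The P5 libraries were above all others. Mmp15 rose by a log2 fold change of 0.50 from P0 to P5 (standard error 0.06, limma adjusted p = 0.000122) and fell by 0.71 from P5 to P10 (adjusted p = 1.12e-05). The fall from P0 to P10 was small, -0.21 (limma adjusted p = 0.0128), and was -0.11 without replicate 3 of each passage (adjusted p = 0.2).

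Among the inhibitors, Timp3, which binds to the matrix and also blocks several ADAM proteases, had 49.9, 84.9 and 48.1 FPKM at P0, 424, 406 and 429 FPKM at P5 and 822, 792 and 824 FPKM at P10. The passages did not overlap, and the mean was 13.3-fold higher at P10 than at P0. Its log2 fold changes were 2.81 (standard error 0.17, limma adjusted p = 1.12e-06) from P0 to P5, 0.95 (0.17, adjusted p = 0.00101) from P5 to P10 and 3.76 (0.17, adjusted p = 5.49e-08) from P0 to P10. From rank 716 to 1338 at P0, it reached rank 69 to 74 among all genes at P10.

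Timp1, the inducible inhibitor that rises with inflammation, had 11.3, 16.8 and 9.84 FPKM at P0, 3.45, 3.57 and 3.61 FPKM at P5 and 0.825, 1.17 and 0.870 FPKM at P10. Each step was about the same in size, with mean levels 3.57-fold lower at P5 than at P0 and 3.71-fold lower at P10 than at P5. The log2 fold changes were -1.56 (standard error 0.16, limma adjusted p = 2.67e-05), -1.22 (adjusted p = 0.000106) and -2.78 from P0 to P10 (adjusted p = 1.89e-07). At P10 the values rest on 28 to 39 fragments per library.

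Timp2, the constitutive inhibitor that also takes part in Mmp2 activation, had 37.5, 49.4 and 42.6 FPKM at P0, 73.5, 75.3 and 75.9 FPKM at P5 and 85.3, 82.8 and 82.6 FPKM at P10. It rose by 0.79 from P0 to P5 (standard error 0.08, limma adjusted p = 3.63e-05) and by 0.95 from P0 to P10 (adjusted p = 4.05e-06). From P5 to P10 the difference was 0.16 (adjusted p = 0.126), and it passed when only these 2 passages were fitted (limma adjusted p = 0.00173), the libraries not overlapping, and when P0 replicate 2 was left out of the shared fit (adjusted p = 0.0223).

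**Figure D3:**
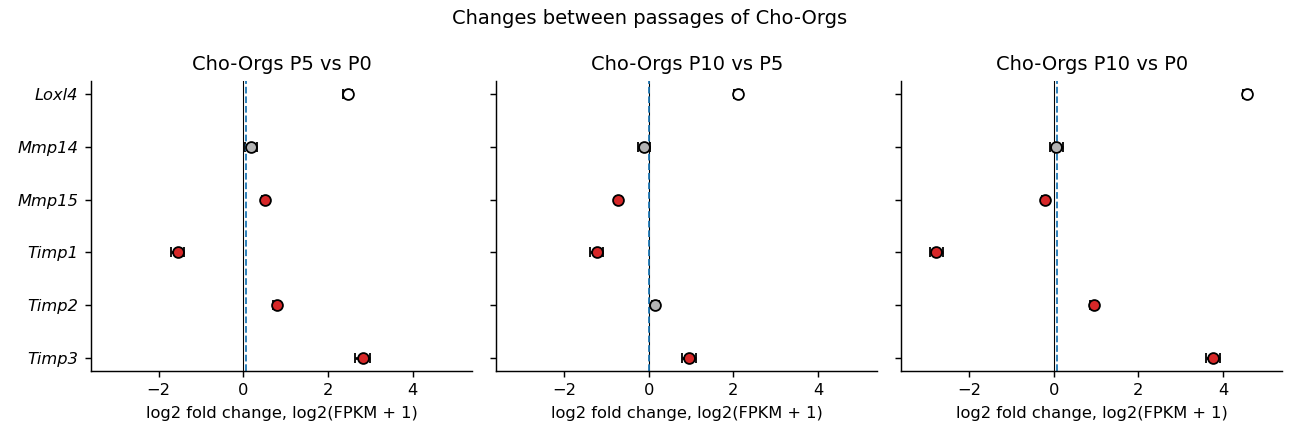
Log2 fold change on the log2(FPKM + 1) scale, with bars for the standard error, of the 5 tested members (red, limma adjusted p below 0.05, grey, above) and of Loxl4 (open, a description) between passages of Cho-Orgs. The dashed line is the median of all 11593 tested genes, 0.062, 0.0055 and 0.069 from left to right. Timp3 and Timp1 move furthest among the tested members, in opposite directions.

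The make-up of the inhibitors shifted with these changes. Timp3 made up 51.5% ± 4.26 (SD, n = 3) of the summed TIMP FPKM at P0, 84.3% ± 0.461 at P5 and 90.6% ± 0.195 at P10, while Timp1 went from 10.8% to 0.711% and 0.107%. Timp2, although its own level rose, went from 37.7% to 9.32%. The summed TIMP level rose from 117 ± 29.7 FPKM to 498 ± 11.9 and 897 ± 18.2 FPKM. The summed level of the 5 MMP members was 65.1 ± 8.35, 83.3 ± 1.45 and 61.1 ± 2.13 FPKM. The ratio of the sums was 1.78 ± 0.280, 5.98 ± 0.202 and 14.7 ± 0.615, with no overlap between passages, and it compares RNA levels of the named members only. Mmp7, left out of that sum, was far more abundant than any of the 5 MMP members, with 982 to 1028 FPKM at P10. In every Cho-Orgs library it alone was above the summed TIMP FPKM, so the ratio holds only for a sum without Mmp7.

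Timp1, Mmp2 and Mmp9 were highest at P0, where hepatocyte and mesenchymal marker sums and the macrophage gene Lyz2 were highest too. The macrophage sum was highest at P5 instead. Of the 10 mesenchymal markers, 1 was at or above 1 FPKM in every P0 library, Lum was at 0 in all, and Dcn had 0.0238, 0.202 and 0.170 FPKM. The macrophage sum was 43.5 to 49.0 FPKM at P0, 72.1 to 77.3 FPKM at P5 and 10.1 to 10.5 FPKM at P10, of which Cd68 made up most at each passage, while Lyz2 was at 9.63, 14.1 and 15.8 FPKM at P0 and 0 from P5 on. At P5, 8 of the 10 macrophage markers were at 0 in every library. From P0 to P5, where Timp1 fell, the macrophage sum rose and the mesenchymal sum dropped. From P5 to P10, where Timp1 fell again, both sums dropped. Cd68 went from 71.8, 76.9 and 74.7 FPKM to 9.51, 9.88 and 9.20 FPKM. Reln went from 7.01, 7.99 and 7.07 FPKM to 0.0807, 0.0707 and 0.0935 FPKM. Neutrophil markers summed to 6.93 to 24.2, 30.9 to 35.6 and 19.8 to 20.4 FPKM and endothelial markers to 0.763 to 1.74, 9.56 to 16.7 and 1.04 to 1.60 FPKM, led on average by Ly6g and Tek. The part of such cells in the member levels was not tested. Replicate 2 of P0 had the highest value of the 3 P0 libraries in 7 of the 10 members, and leaving it out changed the call of no member other than Mmp14 in the comparisons with P0.

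Other matrix genes of the Cho-Orgs were counted from lists of the same field. Over all tested genes, 34.0% were called higher and 22.6% lower from P0 to P5. The shares were 31.0% and 30.5% from P5 to P10, and 41.0% and 31.3% from P0 to P10. Among 14 other MMPs, 4 were tested, and from P0 to P10 2 passed as higher (Mmp11 and Mmp28) and 2 as lower (Mmp7 and Mmp19), with a list median of -0.42 against 0.07 for all genes. Mmp7 (matrilysin), an epithelial MMP that shares 123 exon bases with the antisense gene AV064505, had 2038, 2905 and 2305 FPKM at P0, 1218, 1309 and 1229 FPKM at P5 and 982, 1009 and 1028 FPKM at P10, and fell by 1.25 in log2 terms between P0 and P10 (limma adjusted p = 3.55e-06). Mmp11, a stromelysin, rose by 0.95 (adjusted p = 0.00264). Mmp19 had 2.23, 3.26 and 2.45 FPKM at P0 and 0.121, 0.147 and 0.0695 FPKM at P10, and since it passed the filter only through its P0 libraries, its lower level later on was a condition of its being tested. In the cross-linking list, 7 of 10 genes were tested, of which 2 rose and 3 fell from P0 to P5, 0 rose and 5 fell from P5 to P10, and 0 rose and 6 fell from P0 to P10, with a median of -0.83 in the last. Loxl4, which rose, is a member and not on this list. Loxl2, a lysyl oxidase like Loxl4, had 5.51, 10.2 and 5.98 FPKM at P0 and 0.524, 0.806 and 0.815 FPKM at P10, and fell by 2.23 (limma adjusted p = 2.43e-06). P4ha2, a collagen prolyl hydroxylase and the most abundant of this list, had 50.1, 71.5 and 56.6 FPKM at P0, 98.9, 95.7 and 102 FPKM at P5 and 37.3, 36.3 and 36.4 FPKM at P10. It rose by 0.74 from P0 to P5 (limma adjusted p = 0.00025) and fell by 1.40 from P5 to P10 (adjusted p = 3.59e-06). From P0 to P10 P4ha2 fell by 0.67 (adjusted p = 0.000256) and the transglutaminase Tgm2 by 1.5 (adjusted p = 9.09e-06).

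Of the other protease inhibitors, 5 of 8 were tested, of which 1 rose and 2 fell from P0 to P5 and 0 rose and 3 fell from P0 to P10, with a median of -0.82. Serpine2, which blocks thrombin and plasminogen activators, had 54.6, 85.2 and 59.4 FPKM at P0 and 2.23, 2.30 and 1.87 FPKM at P10, and fell by 4.40 (limma adjusted p = 8.44e-09), whereas Spint2, the most abundant, had a log2 fold change of 0.047 (adjusted p = 0.49). In the plasminogen system, all 8 genes were tested, and 5 rose and 3 fell, with a median of 0.37. Bsg (basigin), a surface protein known to induce MMPs and the most abundant gene of the list, had 1746, 2659 and 2227 FPKM at P0, 2570, 2761 and 2635 FPKM at P5 and 552, 541 and 521 FPKM at P10, and fell by 2.02 from P0 to P10 (limma adjusted p = 3.27e-07). Plaur, the receptor that holds urokinase at the cell surface, had 36.4, 32.7 and 41.1 FPKM at P0 and 184, 187 and 179 FPKM at P10, and rose by 2.30 (adjusted p = 1.41e-08). Plg, the plasminogen made by hepatocytes, had 89.9, 37.6 and 61.3 FPKM at P0 and 0 in each P10 library, and like Mmp19 it passed the filter only through P0. Plat and Plau, the plasminogen activators, had log2 fold changes of 2.10 (limma adjusted p = 1.75e-06) and 1.49 (adjusted p = 3.42e-05). Of 6 tested ADAM and ADAMTS genes among 12, 5 fell and 0 rose (median -0.32), the largest fall being that of Adamts1, by 0.62 (adjusted p = 0.00194). Adam9, the most abundant of them, rose by 0.25 from P0 to P5 (limma adjusted p = 0.00235) and fell by 0.15 from P0 to P10 (adjusted p = 0.0217). Of 3 tested cathepsins among 5, 2 fell and 0 rose (median -0.82), with Ctsb at -0.85 (adjusted p = 1.18e-06). Ctsd, the most abundant, had 550, 674 and 624 FPKM at P0, 1063, 997 and 1091 FPKM at P5 and 585, 578 and 555 FPKM at P10, and its rise from P0 to P5 was 0.77 (limma adjusted p = 1.81e-05). These lists too lie in libraries where 72.3% of the tested genes were called from P0 to P10.

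In the hepatocyte table, the matrix remodelling genes were level across the libraries labelled Pri-Hep and the Hep-Orgs. Timp3 was the most abundant member and Timp2 the next, then Mmp14, Mmp15, Timp1 and Loxl4, and the ranges of neighbours in this order did not overlap. The 4 others were below 1 FPKM in every library. Timp3 had 96.0, 101 and 99.7 FPKM in the libraries labelled Pri-Hep, 96.3, 96.3 and 96.0 FPKM at P1, 98.9, 95.7 and 97.2 FPKM at P5 and 99.2, 99.1 and 101 FPKM at P10. Timp2 lay between 42.6 and 47.4 FPKM over the 12 libraries (median 45.8). The groups of both inhibitors lay on top of each other but for Timp3 at P10, where each library was above those at P1 and at P5. Of all tested genes, 8.38% and 8.52% were higher at P10 in the same way.

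Mmp14 ranged from 17.2 to 18.5 FPKM over the 12 libraries (median 17.5) and Mmp15 from 12.6 to 14.3 FPKM (median 13.2). Timp1 ranged from 2.23 to 4 FPKM (median 2.68) and Loxl4 from 0.828 to 1.34 FPKM (median 1.21), on 49 to 114 fragments. Neither inhibitor nor cross-linker showed the steps seen in Cho-Orgs, and at P10 the Loxl4 libraries alone, at 0.828, 0.975 and 1.34 FPKM, spanned the whole range of the 12 libraries. Lox lay between 0.0692 and 0.281 FPKM on 6 to 25 fragments. Mmp2 reached at most 0.0728 FPKM, Mmp13 0.0396 FPKM and Mmp9 0.0157 FPKM, all on 5 fragments or fewer.

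In none of 7 comparisons did a tested member pass, with 6 tested and 0 called by limma in each. For all passages of Hep-Orgs against Pri-Hep, 0.0% of the 10986 tested genes were called, and their log2 fold changes ran from -0.031 for Loxl4 (standard error 0.08) to 0.11 for Timp1 (0.11), with a smallest adjusted p of 0.808. Against Pri-Hep, the background was 0.0091% at P1, 0.0091% at P5 and 0.0% at P10. Between passages it was 0.0% for P5 against P1 and for P10 against P1 and 0.0273% for P10 against P5. Limma-voom on the recovered fragments also called 0 members in each.

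With 6 members tested in each of the 7 comparisons, 2 values in all had an unadjusted limma p below 0.05, which does not exceed the shares of all genes given here. They were Timp3 for P10 against P1, at 0.05 (limma adjusted p = 0.513), where 8.98% of all genes were below that p, and Mmp14 for P10 against P5, at -0.057 (adjusted p = 0.393), where 11.5% were. In the other comparisons 0 members were, beside 8.79% of all genes for all passages against Pri-Hep, 8.29%, 10.8% and 6.64% for P1, P5 and P10 against Pri-Hep and 3.97% for P5 against P1. In 5 of 36 pairs of a tested member and a comparison of 2 groups, the libraries did not overlap. Mmp14 was lower at P10 than in the libraries labelled Pri-Hep (5.49% of all genes), higher at P5 than at P1 (5.35%) and lower at P10 than at P5 (8.58%). Timp3 was higher at P10 than at P1 (8.38%) and than at P5 (8.52%). In the remaining comparisons and directions, 0 members and between 4.97% and 7.91% of all genes did so: 6.79% higher and 6.72% lower at P1 and 7.7% and 7.42% at P5 against Pri-Hep, 5.44% higher at P10 against Pri-Hep, and 4.97% and 7.91% lower at P5 and P10 against P1. A missed threshold does not show equal levels, and for Timp3, Timp2, Mmp14 and Mmp15 the standard errors of 0.02 to 0.04 bound what could have been seen.

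**Figure D4:**
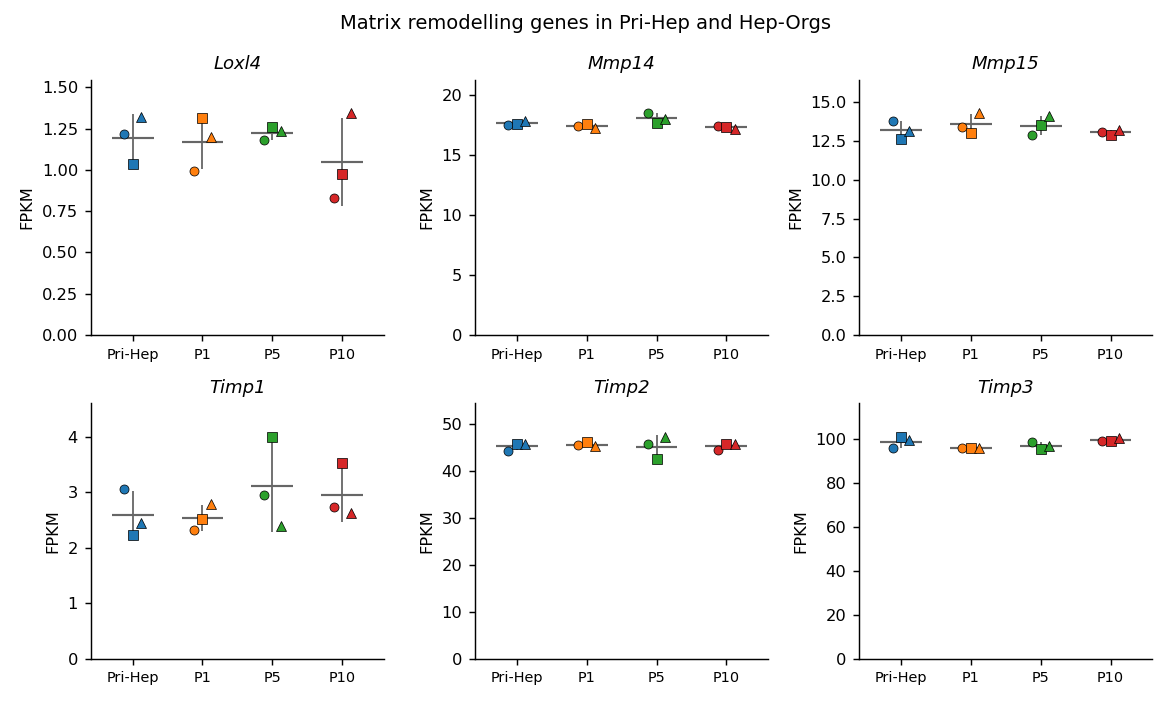
FPKM of the 6 members above the filter in libraries labelled Pri-Hep and in Hep-Orgs at P1, P5 and P10, with circles, squares and triangles for replicates 1, 2 and 3, lines for means and SD (n = 3), and axes from 0. The groups overlap almost throughout, with Timp3 at 95.7 to 101 FPKM and Mmp14 at 17.2 to 18.5 FPKM.

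The make-up of the inhibitors was as even. Timp3 made up 66.1% to 67.8% of the summed TIMP FPKM in the 12 libraries, Timp2 29.9% to 32.2% and Timp1 1.5% to 2.81%. The sums were 142 to 149 FPKM for the TIMPs and 30.3 to 32.1 FPKM for the 5 MMP members, with a ratio of 4.56 to 4.93. Mmp7 was the second most abundant gene of each of these libraries, with 9511 to 10515 FPKM. Of the other matrix lists, 0 of the tested genes passed in the comparison of all passages with Pri-Hep. The mesenchymal markers summed to 6.75 to 7.67 FPKM over the 12 libraries and the macrophage markers to 7.34 to 9.86 FPKM, with Adgre1, Clec4f, Marco, Vsig4, C1qa and C1qb at 0 in all.

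In the picked P0 subtypes, the order of the genes was another one, with Timp2 and Mmp14 on top and Timp3 low. Each subtype is 1 library, so there is no test, and the 95% intervals cover counting error only, on estimated depths and amplified cDNA without molecular identifiers. From grape-like to round-like, 6 of the 10 members were higher in the grape-like library by a log2 ratio of at least 1 and 1 was lower by at least 1, where 12.9% and 8.82% of 12595 genes were. Their median log2 ratio was 1.12, against -0.13 for all genes. In 6 members, with Mmp13 in place of Mmp9 among those above, the levels ran from grape-like over intermediate to round-like.

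Mmp14 was at 151 FPKM in grape-like organoids, 48.7 FPKM in intermediate ones and 32.7 FPKM in round-like ones, and the grape-like library exceeded the round-like by a log2 ratio of 2.17 (95% interval 2.13 to 2.20). Mmp2, at the floor in late Cho-Orgs, had 37.0, 9.22 and 5.46 FPKM, with a ratio of 2.56 (2.46 to 2.65). The gelatinase Mmp2 was thus present with Mmp14 in all 3 subtypes and highest in the grape-like one. Timp2, the inhibitor that bridges the pair, had 172, 49.97 and 39.5 FPKM, with a log2 ratio of 2.09 (2.06 to 2.13).

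Timp1 had 35.4, 30.4 and 16.2 FPKM in the same order, a log2 ratio of 1.08 (0.95 to 1.22). Mmp9 had 4.56, 4.74 and 1.10 FPKM and Mmp13 had 4.09, 3.53 and 2.17 FPKM. For Mmp9 the grape-like and intermediate libraries differed by -0.045 (-0.17 to 0.083), within counting error. Lox reached its highest level of the series in the grape-like library, with 1.57, 0.465 and 0.150 FPKM, while Loxl4 had 0.534, 0.238 and 0.279 FPKM. Intermediate and round-like differed in Loxl4 by -0.046 (-0.17 to 0.078), again within counting error.

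Mmp15 ran against the 6 members with the higher grape-like levels. It was at 7.08, 26.8 and 27.0 FPKM in grape-like, intermediate and round-like organoids, and grape-like over round-like gave a log2 ratio of -1.79 (-1.87 to -1.72). Mmp7 shared this direction, with 835, 3692 and 2427 FPKM. Timp3 had 3.62, 6.26 and 3.21 FPKM and made up 1.71%, 7.22% and 5.45% of the summed TIMP FPKM, whereas Timp2 made up 81.5%, 57.7% and 67.1%. The ratio of summed TIMP to summed MMP FPKM was 1.04, 0.932 and 0.861.

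Between the intermediate and round-like libraries, 1 member, Mmp9, was higher by a log2 ratio of at least 1 and 0 were lower by that much, where 3.85% and 2.54% of all genes were. Between grape-like and intermediate, 3 were higher, Mmp2, Mmp14 and Timp2, and 1, Mmp15, was lower, where 9.71% and 7.15% were. These comparisons share libraries. The sums of mesenchymal, macrophage and endothelial markers ran from grape-like over intermediate to round-like, as did Lox, Mmp2, Mmp13, Mmp14, Timp1 and Timp2. Mmp9 did not, being highest in the intermediate library. Mesenchymal markers summed to 1780, 460 and 386 FPKM (grape-like, intermediate, round-like), with all 10 at or above 1 FPKM in the grape-like one and Dcn at 658, 157 and 102 FPKM. Macrophage markers summed to 9574, 2776 and 1507 FPKM, with Lyz2 at 5942, 1792 and 887 FPKM, and endothelial markers to 235, 94.0 and 46.2 FPKM, with Stab1 at 91.8, 39.6 and 18.3 FPKM. Hepatocyte markers, led by Alb, summed to 6533, 12401 and 1692 FPKM and neutrophil markers, led on average by S100a8, to 7.59, 9.28 and 0.654 FPKM, both highest in the intermediate library. Cholangiocyte markers, at 889, 3513 and 2889 FPKM, were lowest in the grape-like library, where Mmp15 and Mmp7 were lowest too. The part of these cells in the member levels was not tested.

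**Figure D5:**
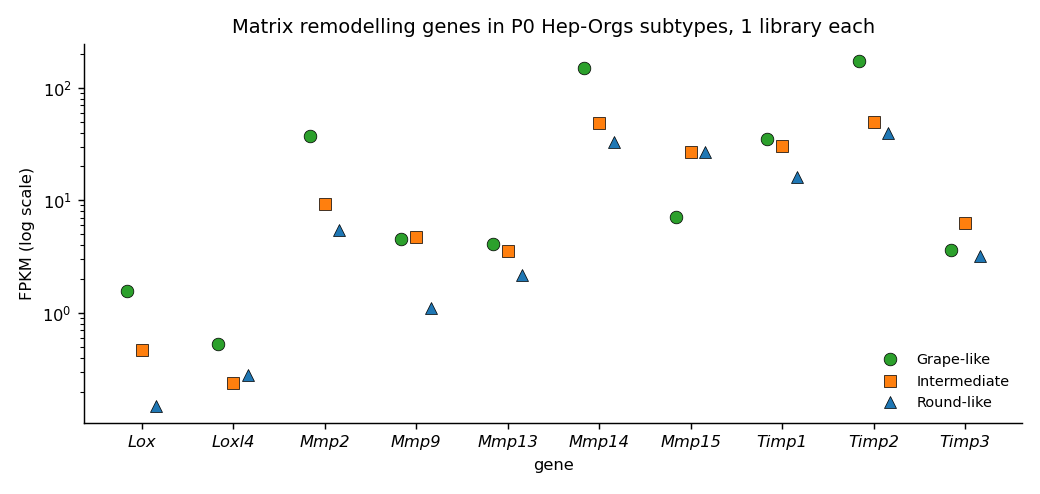
FPKM (log axis) of the 10 genes in the grape-like (circle), intermediate (square) and round-like (triangle) P0 Hep-Orgs, 1 library each and no error bars. Mmp2, Mmp14 and Timp2 stand higher in the grape-like library, at 37.0, 151 and 172 FPKM, and Mmp15 stands lower, at 7.08 FPKM.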

How the data were processed

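Mouse liver organoids and libraries labelled Pri-Hep were profiled in 21 bulk poly(A) libraries and 3 Smart-Seq libraries. The authors deposited FPKM in 3 tables, each normalized on its own. Per the labels, featureCounts 2.0.3, edgeR 3.40.2 and mm10 were used, and the aligner and the annotation are not given in the sources used here. In the hepatocyte table the deposited FPKM times the listed gene length gave whole fragments for 100% of values (tolerance 0.05). In the others, depth was estimated from the steps of low values and GENCODE M21 lengths, and is approximate.

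Genes that reached 1 FPKM in 3 or more libraries of their table were compared on log2(FPKM + 1) with limma 3.58.1 (lmFit, eBayes with trend, two-sided, R 4.3.3), all groups of a table together, with Benjamini-Hochberg adjustment and a threshold of 0.05. The model was also run on simulated data in which all genes had the same depth per FPKM and the same spread. That setting differs from these libraries, so no conclusion is drawn from it. Smart-Seq libraries were compared by log2 ratios without a test. Tables were not tested against each other. Python 3.11.15 with pandas 2.3.3 and matplotlib 3.10.9 was used.

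The members, lists and tests were chosen with earlier results of these data known. The text names all 10 members, of each further matrix list the gene with the highest mean in Cho-Orgs and the largest rise and fall there from P0 to P10, and the leading genes of the marker lists, with Alb, Krt7 and Krt19. Plat, Plau, Tgm2, Mmp28 and the markers at or near 0 were named after their values were seen. Cst3 and Oit3, which led a list in the Smart-Seq and in the hepatocyte table, are not described. Replicate numbers are the same in each group, and 1 description of the study ties them to mice. The median correlation of deviations from the group mean was -0.0063 over 9 pairs of libraries with the same number in Cho-Orgs and -0.0016 over 18 pairs in the hepatocyte table. The alternatives were another pseudocount, filters, TPM, median-ratio scaling, no trend, a replicate block, fits of only the groups compared, limma-voom on recovered fragments, and leaving out replicates.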

Additional observations from a re-analysis of the deposited data

How the results depend on the processing

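All counts of members called were within 1.5 times of the main count under every alternative run. With the replicate number as a block, no call of a member changed. The largest adjusted p of a called member was then 0.0268 (Mmp15, P10 against P0, limma), beside 0.0128 without the block. Leaving out 1 replicate number at a time, Mmp14 in Cho-Orgs went from -0.027 to 0.36 (P5 against P0) and from -0.12 to 0.27 (P10 against P0), and median-ratio scaling gave -0.014 for the latter. Without P0 replicate 2 alone, they were 0.37 and 0.26. In Hep-Orgs against Pri-Hep, the same omissions gave -0.096 to 0.029 for Loxl4, -0.016 to 0.0075 for Mmp14, -0.0066 to 0.062 for Mmp15, -0.046 to 0.24 for Timp1, -0.011 to 0.021 for Timp2 and -0.043 to 0.0030 for Timp3, and TPM gave -0.00052 for Timp2. The cause of these changes of sign was not tested. Of other values of single genes, 281 stayed the same, 19 moved, 5 newly passed and 1 no longer passed. Over all genes, P5 against P0 in Cho-Orgs gave 6559 calls, and 4268 without replicate 3. For P10 against P5 in Hep-Orgs there were 3 calls, 2 without replicate 1 and 0 with the block, without the trend, over all genes above 0 FPKM, with only the groups compared, or without replicate 2 or 3, whereas limma-voom gave 28. Limma-voom gave 12 for all passages against Pri-Hep, 30 for P1, 39 for P5 and 0 for P10 against Pri-Hep, 29 for P10 against P1 and 0 for P5 against P1. Depth limits Lox, Mmp2, Mmp9 and Mmp13 in the bulk libraries, where a level below 3 fragments could not be seen.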

Other observations

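Over the 9 Cho-Orgs libraries, the genes whose log2(FPKM + 1) followed Loxl4 most closely were Slc38a2, a neutral amino acid transporter, AI661453 and Mprip, a myosin phosphatase partner. Slc38a2 had a Pearson correlation of 0.999 with Loxl4 and mean levels of 68.5, 134 and 254 FPKM at P0, P5 and P10. AI661453 and Mprip correlated at 0.998, with means of 37.1, 45.1 and 54.8 FPKM and of 11, 18.9 and 28.1 FPKM. For Timp1 the closest were Gas1, a cell surface protein, Acot1, an acyl-CoA thioesterase, and Fabp5, a fatty acid binding protein. Gas1 had a correlation of 0.997 with means of 1.76, 0.787 and 0.218 FPKM, Acot1 0.996 with 9.67, 3.98 and 1.90 FPKM and Fabp5 0.996 with 534, 158 and 57.6 FPKM. Such values are common here, since 984 of 11587 genes correlated with Loxl4 above 0.95 and 471 with Timp1, and the 9 libraries fall into 3 passages. They describe likeness of course over the passages, and no p is given.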
